A study of Mus musculus with 3 samples.

Results

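Signals of 6 C-type lectin genes of the DCIR and dectin groups were read on 3 arrays of mouse dendritic cells (DC): Clec4a2, Clec4a3, Clec4n, Clec7a, Clec4d and Clec4e. They were taken by gene symbol from a list of 8, and the remaining list entries, Clec9a and Clec12a, were not analysed here. The 6 genes are among 18194 genes with a probe set of their own, and they hold 9 of the 45101 probe sets. The 3 cell types were plasmacytoid DC (pDC), CD8+ conventional DC (CD8+ cDC) and CD11b+ conventional DC (CD11b+ cDC), each sorted by flow cytometry from spleens of healthy female C57bl/6 mice, 6 to 8 weeks old, after bead depletion of T and B cells. Each cell type has 1 array, hybridised with RNA pooled from 5 to 8 mice. No spread between samples can be measured from 1 array per cell type, so no test, standard error or p-value is given, and each sort is fully tied to its own array.

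These receptors are small type II membrane proteins that bind sugars or other ligands on microbes and dying cells. Some start signalling and some hold it back. Dectin-1 (Clec7a) binds beta-glucan of fungal walls and recruits the kinase Syk through its own cytoplasmic tyrosine motif. Dectin-2 (Clec4n), which binds fungal mannans, Mincle (Clec4e) and its partner MCL (Clec4d), which bind mycobacterial glycolipid, rely on the adaptor FcR gamma chain (Fcer1g) to reach Syk. DCIR (Clec4a2) carries an inhibitory tyrosine motif that recruits the phosphatases SHP-1 (Ptpn6) and SHP-2 (Ptpn11), and Clec4a3 is a close relative of it. DNGR-1 (Clec9a) is known as a receptor for actin exposed by dead cells on CD8+ cDC, and Clec12a as an inhibitory receptor.

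A signal is the deposited intensity of a probe set on a linear scale. Values at or below 111 were treated as background, a level set from probe sets of odorant, pheromone and taste receptors, and were raised to it before log2 was taken. A gene counted as higher or lower where 2 arrays differed at least 2-fold and the brighter one lay above background. Marker genes went with the sort labels, though the lists were chosen with earlier results of these data known and are no independent check. Of the measured pDC markers, 9 of 9 were higher in pDC than in either cDC subset. Of the CD8+ cDC markers, 10 of 10 were lower in pDC than in CD8+ cDC. Against CD11b+ cDC, 9 of 10 CD8+ cDC markers were higher in CD8+ cDC, and Batf3 stayed below 2-fold. All 10 CD11b+ cDC markers were lower in CD8+ cDC than in CD11b+ cDC, and 9 of 10 were lower in pDC than in CD11b+ cDC, with Cd4 higher in pDC. Itgam, encoding CD11b itself, read 63.6 in pDC, 64.3 in CD8+ cDC and 2786.5 in CD11b+ cDC. Cd8a read 32230.5 in pDC, 203567 in CD8+ cDC and 702 in CD11b+ cDC, and Siglech read 106309.8 in pDC, 53.4 in CD8+ cDC and 52.2 in CD11b+ cDC. The ratio of 3' to 5' control signals, a sign of RNA integrity and amplification, was lowest on the array where these lectins were brightest: for Actb it was 5.71 in pDC, 4.08 in CD8+ cDC and 2.91 in CD11b+ cDC, and for Gapdh 16.2, 17.6 and 9.68. Its part in the results was not tested. In sorted bulk RNA, fewer cells of a type and less RNA per cell cannot be told apart.

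Both DCIR genes were brightest in CD11b+ cDC and dim in the other cell types. Probe sequences were not used here, so cross-hybridization among the closely related DCIR genes was not tested. Clec4a2 gave a signal of 318 in pDC, 457 in CD8+ cDC and 34496 in CD11b+ cDC. It was thus 108-fold lower in pDC than in CD11b+ cDC and 75.4-fold lower in CD8+ cDC than in CD11b+ cDC, while pDC and CD8+ cDC differed 1.44-fold, below the rule. Ranked by the margin of CD11b+ cDC over the brighter of the other cell types, Clec4a2 stood 9th of the 11011 genes above background on any array. A second Clec4a2 probe set showed much less: 75.9 in pDC and 81.4 in CD8+ cDC, both at background, and 175 in CD11b+ cDC, at least 1.58-fold apart, which did not reach the rule. A further probe set, annotated to Clec4b1 as well as Clec4a2 and therefore not assigned to either, read 312 in pDC, 334 in CD8+ cDC and 14410 in CD11b+ cDC, a 46.2-fold and a 43.1-fold difference.

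Clec4a3, the DCIR relative, read 769 in pDC, 999 in CD8+ cDC and 20086 in CD11b+ cDC at its 1 probe set. CD11b+ cDC was the high sample, and the other cell types lay close together. It was 26.1-fold lower in pDC than in CD11b+ cDC, 20.1-fold lower in CD8+ cDC than in CD11b+ cDC, and differed 1.30-fold between pDC and CD8+ cDC. By the margin of CD11b+ cDC it ranked 44th of the 11011 genes.

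**Figure D1:**
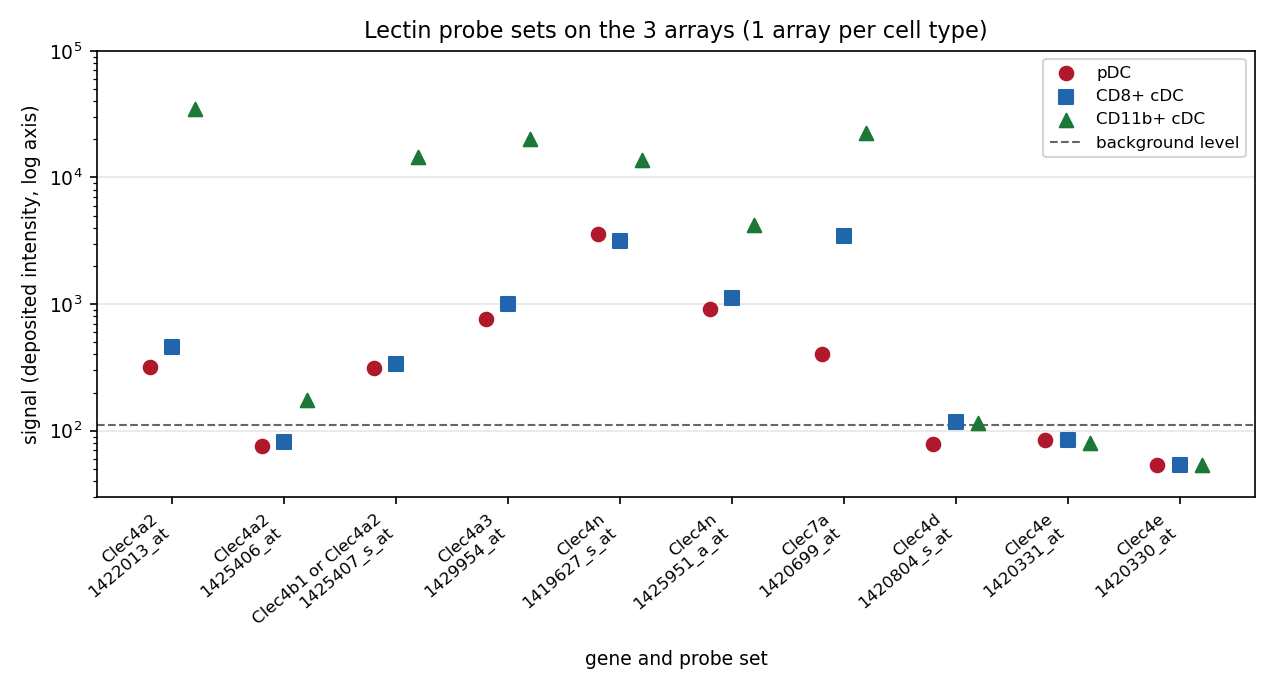
Signal (deposited intensity, log axis) of the 9 lectin probe sets and the shared probe set on the pDC, CD8+ cDC and CD11b+ cDC arrays, 1 point per array, with the background level of 111 as a dashed line. CD11b+ cDC stands highest at Clec4a2, Clec4a3, Clec4n and Clec7a, and Clec4d and Clec4e lie at or near background. Heights of different probe sets are not comparable.

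Clec7a, encoding dectin-1, was graded over all 3 cell types. Its 1 probe set read 403 in pDC, 3419 in CD8+ cDC and 22365 in CD11b+ cDC. Every neighbouring pair in that order differed by more than 2-fold: Clec7a was 8.49-fold lower in pDC than in CD8+ cDC and 6.54-fold lower in CD8+ cDC than in CD11b+ cDC, which makes 55.5-fold between pDC and CD11b+ cDC. Of the lectins measured, Clec7a alone differed by the rule between pDC and CD8+ cDC, at each of the scalings and other settings tried.

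Clec4n, encoding dectin-2, was above background in all 3 cell types. Its brighter probe set read 3544 in pDC, 3127 in CD8+ cDC and 13810.3 in CD11b+ cDC, and the dimmer one read 912, 1117 and 4174 in the same order. At the brighter one, Clec4n was 3.90-fold lower in pDC than in CD11b+ cDC and 4.42-fold lower in CD8+ cDC than in CD11b+ cDC. The dimmer probe set gave 4.58-fold and 3.74-fold. Between pDC and CD8+ cDC the probe sets leaned opposite ways, with 1.13-fold toward pDC at the brighter and 1.23-fold toward CD8+ cDC at the dimmer. Both probe sets bear name endings of probes shared by several transcripts.

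Clec4d and Clec4e, the mycobacterial glycolipid receptors, were at or next to background everywhere. Clec4d read 78.7 in pDC, 116.6 in CD8+ cDC and 115.5 in CD11b+ cDC, at most 1.05 times the background level. Clec4e read 85.1 in pDC, 85.2 in CD8+ cDC and 80.3 in CD11b+ cDC at the brighter probe set, and 53.5, 54.0 and 54.1 at the other. No difference between cell types could be read for these genes.

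The promoter windows of the genes with the steepest gradients toward CD11b+ cDC are given to set their upstream sequence side by side. Each holds the 250 bases before the outermost annotated start, read 5′ to 3′ on the gene's strand, from RefSeq on GRCm38.p6. Of the 8 listed genes, 7 had an entry, all on chromosome 6. Capitals mark matches on either strand to GAGGAA, a core bound by the myeloid factor PU.1, and to the ETS-IRF composite, GGAA and GAAA with any 2 bases between them.
Clec7a (chr6:129472786-129473035, minus strand): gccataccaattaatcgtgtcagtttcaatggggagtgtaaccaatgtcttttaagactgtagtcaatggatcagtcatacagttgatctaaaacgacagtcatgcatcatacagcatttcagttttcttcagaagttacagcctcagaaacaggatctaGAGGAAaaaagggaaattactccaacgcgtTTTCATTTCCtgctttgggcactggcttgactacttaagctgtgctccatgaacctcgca
Clec4a2 (chr6:123122440-123122689, plus strand): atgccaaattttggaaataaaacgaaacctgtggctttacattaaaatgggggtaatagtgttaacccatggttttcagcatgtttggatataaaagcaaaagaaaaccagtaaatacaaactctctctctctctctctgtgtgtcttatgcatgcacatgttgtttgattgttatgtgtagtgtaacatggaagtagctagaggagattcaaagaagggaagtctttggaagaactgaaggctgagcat
Clec4a3 (chr6:122952265-122952514, plus strand): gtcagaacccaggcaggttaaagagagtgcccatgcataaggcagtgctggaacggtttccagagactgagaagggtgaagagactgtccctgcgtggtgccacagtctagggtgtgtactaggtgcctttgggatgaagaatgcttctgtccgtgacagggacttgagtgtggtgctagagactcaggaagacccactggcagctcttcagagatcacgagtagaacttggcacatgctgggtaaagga

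The Clec7a window holds GAGGAA from base -90 and, on the opposite strand from base -60, the composite (TTTCATTTCC as read here). The Clec4a2 and Clec4a3 windows hold neither, while the window of a second, inner Clec4a3 start holds GAGGAA on the opposite strand from base -50. At the outermost starts of the members at or near background, the Clec4d window holds GAGGAA from base -240, and the Clec4e window holds it from bases -123 and -56. Over all 32851 promoter windows of this length, 23.3% hold GAGGAA and 2.3% hold the composite. The 2 matches in Clec7a do not overlap. TGANTCA, the AP-1 site found in 6.75% of windows, and TTGCNNAA, a C/EBP-type sequence found in 9.56%, are in none of the 3 windows shown, and the Clec4e window holds a C/EBP-type match from base -66. Sequence matches are descriptions only, and windows without one say nothing of factor binding.

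Between pDC and CD11b+ cDC, 4 of the 5 lectin genes above background were lower in pDC (Clec4a2, Clec4a3, Clec4n and Clec7a) and 0 were higher. Among all 10793 genes above background in that pair, 14.3% were lower in pDC and 15% higher. The median log2 difference of the 5 was -4.71, against 0.01 over all genes. Between pDC and CD8+ cDC, 1 of 5 was lower in pDC (Clec7a) and 0 were higher, beside 14.8% and 16% of 10823 genes, with a median of -0.38, against 0.00 over all genes. That count of 1 is near the background share. Between CD8+ cDC and CD11b+ cDC, the same 4 genes were lower in CD8+ cDC and 0 were higher, beside 10.3% and 9.84% of 10709 genes, with a median of -2.71, against 0.01. The first and last of these comparisons share the CD11b+ cDC array, so their counts are not separate evidence. Being at least 2-fold brighter in CD11b+ cDC than in either other cell type, as these 4 were, applied to 5% of the 11011 genes.

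The calls of these 4 genes did not hinge on how the arrays were scaled. Scaling on the hybridization spike-ins moved the median of all genes measured on the deposited scale to -0.34 between pDC and CD11b+ cDC, to 0.61 between pDC and CD8+ cDC, and to -0.96 between CD8+ and CD11b+ cDC, and scaling on housekeeping genes moved it to 0.23, 0.47 and -0.23. Of all genes called in each pair, 51.2%, 51.9% and 49.0% were higher in the cell type named first as deposited, 34.7%, 77.4% and 7.91% with spike-in scaling, and 61.3%, 72.3% and 34% with housekeeping scaling. Against CD11b+ cDC, the log2 differences of Clec4a3, Clec4n and Clec7a in pDC lay between -6.15 and -1.73 over all settings tried. Clec4a2 ranged from -7.12 to -3.71, the smaller size coming from averaging its probe sets. Between pDC and CD8+ cDC, the small differences of Clec4a2 (-0.52 as deposited), Clec4a3 (-0.38) and Clec4n (0.18) changed sign under at least 1 setting, so their order is not settled.

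**Figure D2:**
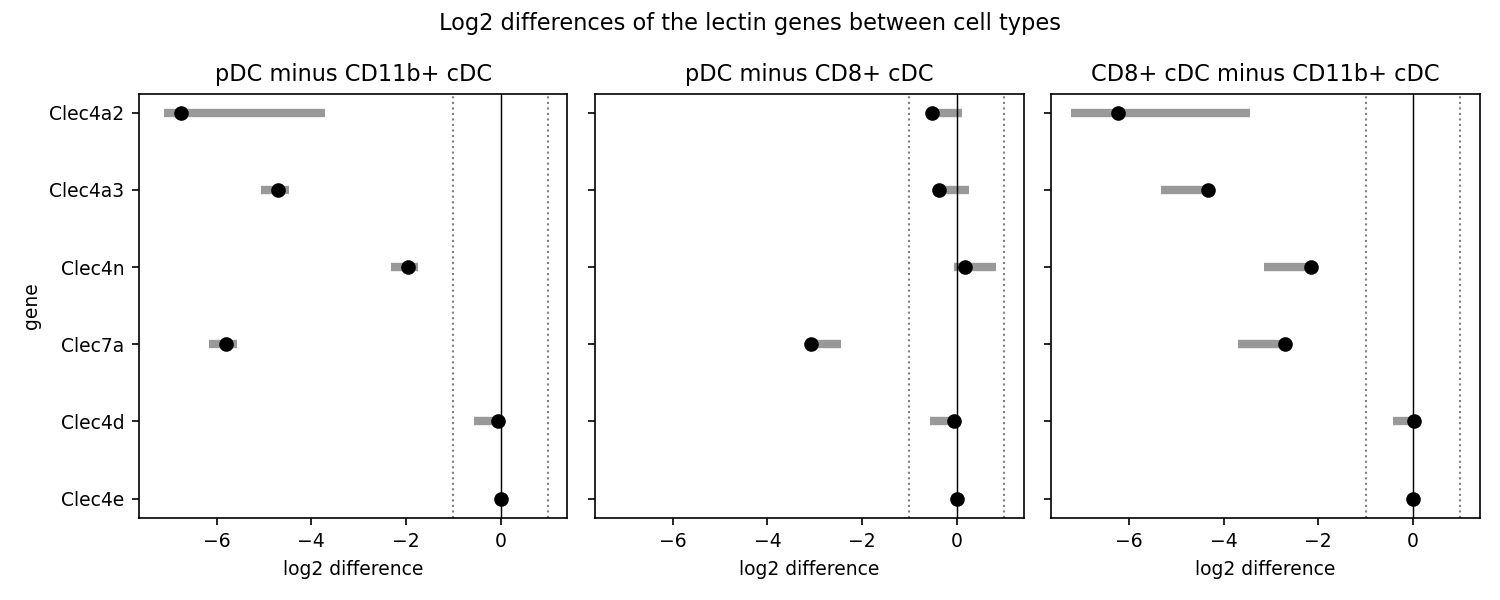
Log2 difference of each lectin gene (points) in 3 panels, pDC minus CD11b+ cDC, then pDC minus CD8+ cDC, then CD8+ minus CD11b+ cDC, with the lowest to highest value over the other settings tried as grey bars and 2-fold as dotted lines. Clec4a2, Clec4a3, Clec4n and Clec7a stay beyond 2-fold below 0 in both comparisons with CD11b+ cDC, and Clec7a alone does so between pDC and CD8+ cDC.

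Among markers of myeloid cells that also carry these receptors, most neutrophil markers were brightest in CD11b+ cDC, while monocyte and macrophage markers were mixed. Over all genes, 14.3% were lower in pDC and 10.3% lower in CD8+ cDC than in CD11b+ cDC. Of 8 measured neutrophil markers, 7 were lower in pDC than in CD11b+ cDC and 7 lower in CD8+ cDC than in CD11b+ cDC. The summed signal of the 10 listed here was 3136 in pDC, 1708 in CD8+ cDC and 18226 in CD11b+ cDC, and Cxcr2 and Mmp8 were at background on all arrays. Of 10 measured monocyte and macrophage markers, 4 were lower and 1 higher in pDC than in CD11b+ cDC, and 5 were lower and 0 higher in CD8+ cDC than in CD11b+ cDC. Spike-in scaling moved genes at large the same way. Of all genes called against CD11b+ cDC, it left 34.7% higher in pDC and 7.91% higher in CD8+ cDC. As deposited, these shares were 51.2% and 49.0%. Under spike-in scaling, 4879 of all 11712 genes were lower in CD8+ cDC than in CD11b+ cDC. Of the 10 monocyte and macrophage markers, 7 were then lower in pDC and 9 lower in CD8+ cDC. Their sums over 11 genes were 593229 in pDC, 523495 in CD8+ cDC and 908005.5 in CD11b+ cDC, of which Ctss gave 557959 in pDC, 439810.3 in CD8+ cDC and 587282 in CD11b+ cDC, and Vcan was at background throughout. Adgre1, encoding F4/80, was 26.7-fold lower in pDC and 22.1-fold lower in CD8+ cDC than in CD11b+ cDC. Ccr2 went the other way, 13.0-fold higher in pDC than in CD11b+ cDC, and Fcgr1 and Ctss stayed below 2-fold in each pair. All 8 red pulp macrophage markers were above background on all 3 arrays. Against CD11b+ cDC, 3 were lower in CD8+ cDC, and 5 were lower and 1, Cd163, higher in pDC. Spic, Vcam1 and Hmox1 were brightest in CD8+ cDC. The sums were 50309.9 in pDC, 101719.9 in CD8+ cDC and 117084.5 in CD11b+ cDC. Of 4 measured B cell markers, 3 were lower and 1, Cd79b (2.51-fold), was higher in pDC than in CD11b+ cDC, and 3 were lower and 0 higher in CD8+ cDC than in CD11b+ cDC, with sums over 8 genes of 11737 in pDC, 21431 in CD8+ cDC and 95884 in CD11b+ cDC, of which Cd22 alone read 78540 in CD11b+ cDC. Cd79a, Pax5, Ebf1 and Fcer2a were at background on all arrays. Of 6 T cell markers, Cd3d, Cd3e, Cd3g and Thy1 were at background on all arrays, Cd28 read 4830 in pDC and was at background in both cDC subsets, and Cd5 read 343.5 in pDC, 432.5 in CD8+ cDC and 2832 in CD11b+ cDC. Of 6 NK cell markers, Ncr1, Prf1, Eomes and Nkg7 were at background on all arrays, Gzma was 2.06-fold lower in pDC and 2.07-fold lower in CD8+ cDC than in CD11b+ cDC, and Klrk1 read 125.7 in pDC, 792.6 in CD8+ cDC and 307.0 in CD11b+ cDC. Clec4d and Clec4e, known from neutrophils and monocytes, were at or next to background on all arrays, and how well their probe sets detect them was not tested. The part of such cells in the lectin differences was not tested.

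The 6 genes sit on chromosome 6 in separate blocks of lectin genes. In the annotation of GRCm38.p6, Clec4a3, Clec4a4, Clec4b1, Clec4a2, Clec4b2, Clec4n, Clec4d and Clec4e follow each other as protein-coding genes with no other between them. Clec4b1, between Clec4a3 and Clec4a2, read 143 in pDC, 146 in CD8+ cDC and 279 in CD11b+ cDC, with CD11b+ cDC again the high sample. It was 1.95-fold lower in pDC and 1.91-fold lower in CD8+ cDC than in CD11b+ cDC, just under the rule. With spike-in scaling these became 2.49-fold and at least 3.21-fold, and with housekeeping scaling 1.66-fold and at least 2.14-fold. Under both scalings CD8+ cDC fell to background. Clec4d and Clec4e, next to Clec4n, were at or near background. Around Clec7a, Clec1a and Olr1 on either side were at background on all 3 arrays. Clec1b, encoding CLEC-2, the platelet receptor for podoplanin, read 790.1 in pDC, 2052 in CD8+ cDC and 2047 in CD11b+ cDC. Of the 13 matched genes of a list of other lectins and related genes of the complex, 6 were above background. Cd69, an early activation antigen, was 15.7-fold and 17.1-fold higher in pDC than in CD11b+ cDC and CD8+ cDC. Clec1b was 2.59-fold lower in pDC than in CD11b+ cDC and 2.60-fold lower than in CD8+ cDC, and the call against CD8+ cDC was lost under both other scalings. Clec2d, a ligand of NKR-P1 receptors, was 2.01-fold higher in pDC than in CD11b+ cDC, which fell below the rule with spike-in scaling. Clec2i, also such a ligand, was 4.33-fold higher in pDC than in CD8+ cDC and 2.32-fold lower in CD8+ cDC than in CD11b+ cDC. Clec4a1, Clec4a4 and Clec4b2 were not analysed here.

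**Figure D3:**
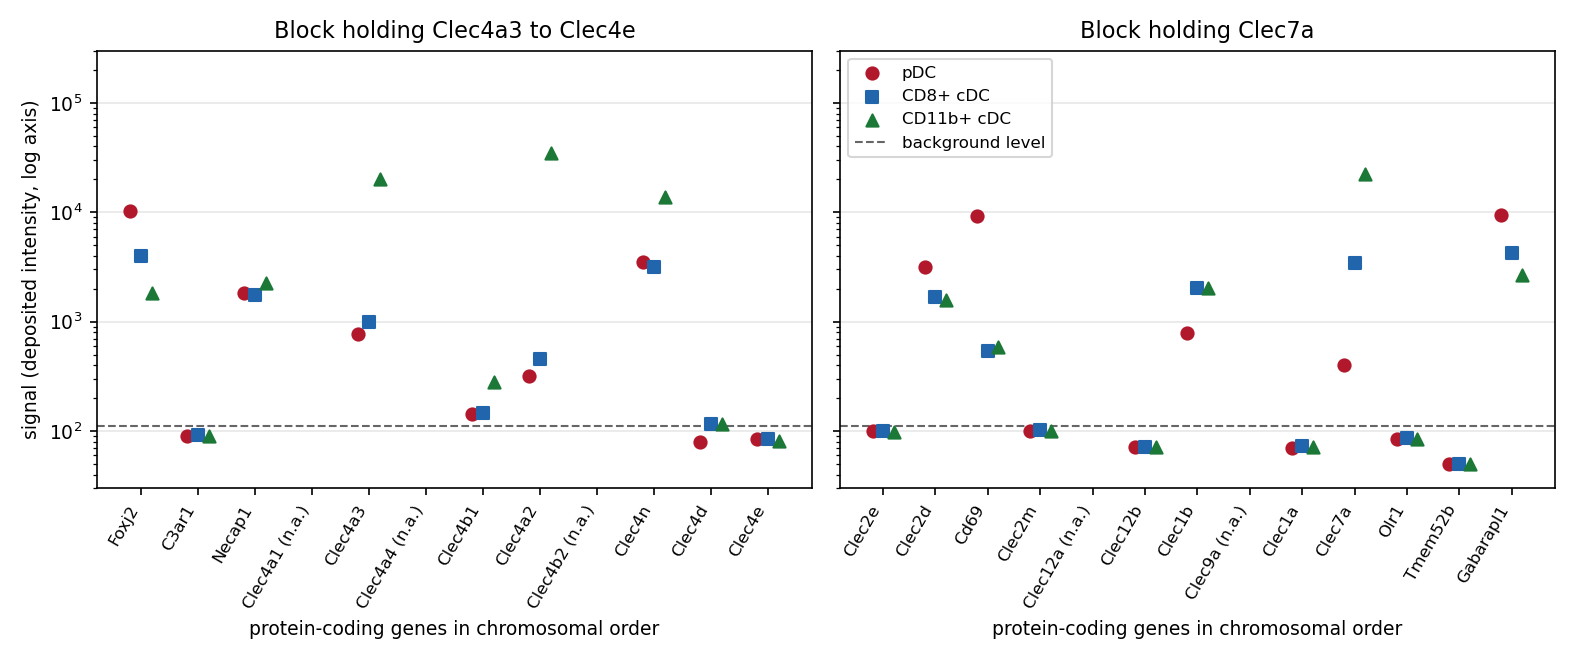
Signal (log axis) of protein-coding genes in chromosomal order around Clec4a3 to Clec4e (left) and around Clec7a (right) on the pDC, CD8+ cDC and CD11b+ cDC arrays, 1 point per array, with n.a. for genes not analysed here. Clec4a3, Clec4b1, Clec4a2, Clec4n and Clec7a stand highest in CD11b+ cDC, and Clec4d, Clec4e, Clec1a and Olr1 lie near or below the dashed background level.

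For each lectin, the genes with the nearest profile were sought by the Euclidean distance between log2 values centred over the 3 cell types, among 9290 genes at least 4 times above background somewhere. Nearest to Clec4a2 were Cd22, an inhibitory lectin better known from B cells (distance 0.37), Sucnr1, the succinate receptor gene (0.38), and the keratin gene Krt80 (0.38), of which Sucnr1 and Krt80 were at background in pDC and CD8+ cDC. Cd22 read 819 in pDC, 1493 in CD8+ cDC and 78540 in CD11b+ cDC. Nearest to Clec4a3 were the chemokine gene Ccl9 (0.09), Adgre1 (0.10) and B4galt6, a galactosyltransferase gene (0.25). Nearest to Clec7a were Ehf, an ETS family transcription factor gene (0.08), Adap1 (0.13) and the chloride cotransporter gene Slc12a2 (0.19). Ehf read 72.6 in pDC, at background, 1000.4 in CD8+ cDC and 6058 in CD11b+ cDC. Nearest to Clec4n were Svip (0.11), Pitpnc1 (0.11) and L1cam (0.12). The profile of Clec4d is set by the background floor, so no nearest genes are given for it. Of the lectins themselves, the closest pair among Clec4a2, Clec4a3, Clec4n and Clec7a was Clec4a2 and Clec4a3 (1.62), and Clec4a2 and Clec4n lay farthest apart (3.66). Likeness over 3 arrays is a weak description.

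The signalling genes that these receptors use were set beside them, from lists of 53 genes of which 46 were matched. The list counts below are to be read beside the shares over all genes measured in a pair. In pDC against CD11b+ cDC, 15% of all genes were higher and 14.3% lower. These shares were 16% and 14.8% in pDC against CD8+ cDC, and 9.84% and 10.3% in CD8+ cDC against CD11b+ cDC. Fcer1g, the FcR gamma chain that dectin-2 requires, read 29553 in pDC, 2455 in CD8+ cDC and 42453 in CD11b+ cDC. It differed 1.44-fold between pDC and CD11b+ cDC but was 12-fold higher in pDC than in CD8+ cDC and 17.3-fold lower in CD8+ cDC than in CD11b+ cDC. Tyrobp, the related adaptor DAP12, read 467190.2 in pDC, 118140.5 in CD8+ cDC and 273280.2 in CD11b+ cDC. Syk, the kinase all activating members converge on, read 49157 in pDC, 12569 in CD8+ cDC and 43048 in CD11b+ cDC, so that CD8+ cDC was the low sample for all 3 genes. Syk was 3.91-fold higher in pDC than in CD8+ cDC and 3.42-fold lower in CD8+ cDC than in CD11b+ cDC. Card9, the scaffold downstream of Syk, was not analysed here.

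Of the 15 measured receptor-proximal genes, 3 were higher and 3 lower in pDC than in CD11b+ cDC (median log2 0.19). Fyn was 12.5-fold, the calcium channel gene Itpr2 3.68-fold and Src 2.13-fold higher in pDC, and Pik3cg was 4.09-fold, the exchange factor gene Vav3 2.94-fold and Pik3cd 2.02-fold lower. Src lost its call with spike-in scaling and Pik3cd with housekeeping scaling. Under the latter Tyrobp, Prkcd and Vav1 became higher in pDC, for 6 higher and 2 lower. Of all 10699 genes, 2069 were then higher and 1306 lower in pDC. Between pDC and CD8+ cDC, 8 were higher in pDC and 1, Vav3 (6.26-fold), was lower (median 1.23). After Fcer1g came the Src family kinase genes Fgr (9.48-fold) and Fyn (9.13-fold) and Itpr2 (4.93-fold). Between CD8+ cDC and CD11b+ cDC, 7 were lower in CD8+ cDC and 2 higher (median -0.42), with Fgr 9.15-fold, Pik3cg 3.87-fold and Syk lower, and Src 3.33-fold and Vav3 2.13-fold higher. Both higher calls fell below the rule with spike-in scaling, and that of Vav3 also with housekeeping scaling.

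The 12 measured genes of the CARD9 and NF-kappaB arm held 5 that were lower in pDC than in CD11b+ cDC and 0 higher (median -0.40). Relb read 4535 in pDC, 29238 in CD8+ cDC and 88805 in CD11b+ cDC. It was 19.6-fold lower in pDC than in CD11b+ cDC, Map3k14, the kinase NIK upstream of RelB, 5.78-fold, Rel 5.06-fold and Nfkb2 3.07-fold. Against CD8+ cDC, 3 were lower in pDC, Relb (6.45-fold), Map3k14 (5.20-fold) and Rel (2.42-fold), and Rel lost its call under both other scalings. Relb (3.04-fold), Malt1 (2.10-fold) and Rel (2.09-fold) were the 3 lower in CD8+ cDC than in CD11b+ cDC (median -0.52). With spike-in scaling the count reached 11, but 4879 of all 11712 genes were then lower in CD8+ cDC too.

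Of 9 NFAT and Egr genes, 4 were lower in pDC than in CD11b+ cDC, 4 lower in pDC than in CD8+ cDC and 0 higher in either. Egr2 read 875 in pDC, 21355 in CD8+ cDC and 20892 in CD11b+ cDC. Egr3 was 20.1-fold lower in pDC than in CD11b+ cDC and 120-fold lower than in CD8+ cDC, Egr1 15.3-fold and 12.9-fold, and Nfatc2 3.34-fold and 2.32-fold. The last of these calls was lost under both other scalings. Only Egr3 (5.99-fold higher) differed between CD8+ cDC and CD11b+ cDC. With spike-in scaling, 7 of the 9 were lower in CD8+ cDC, as were 4879 of all 11712 genes. Of 10 inhibitory genes, the SHP-1 gene Ptpn6 read 238735.6 in pDC, 61224 in CD8+ cDC and 249710.0 in CD11b+ cDC, 3.90-fold higher in pDC than in CD8+ cDC and 4.08-fold lower in CD8+ cDC than in CD11b+ cDC. Ptpn11 (SHP-2) stayed below 2-fold in each pair. Against CD11b+ cDC, 2 were higher in pDC, Inppl1 (6.39-fold) and Pag1 (3.80-fold), and 2 lower, Ptpn22 (132-fold) and Dok1 (2.45-fold). Against CD8+ cDC, 3 of 9 were higher in pDC, Pag1 (20.5-fold), Inppl1 (6.74-fold) and Ptpn6, and 2 lower, Ptpn22 (64.2-fold) and Dok1 (3.24-fold). In CD8+ cDC against CD11b+ cDC, 4 were lower, Pag1 (5.39-fold), Ptpn6, Csk (2.34-fold) and Ptpn22 (2.06-fold), and 0 higher.

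All 46 signalling genes together gave 5 higher and 14 lower in pDC than in CD11b+ cDC, beside 15% and 14.3% of all genes. The median log2 difference was -0.39, against 0.01 for all genes. In pDC against CD8+ cDC, 11 of 45 were higher and 10 lower, beside 16% and 14.8% of all genes (median 0.02, against 0.00). With either other scaling the counts were 14 and 8. Of all 10613 genes, 3456 were higher and 1009 lower in pDC with spike-in scaling. Housekeeping scaling gave 2921 higher and 1118 lower of 10631. In CD8+ cDC against CD11b+ cDC, 3 were higher and 14 lower, beside 9.84% and 10.3% of all genes (median -0.45, against 0.01). With spike-in scaling the counts were 1 and 34, beside 419 and 4879 of 11712 genes. With housekeeping scaling the first split was 8 and 12.

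**Figure D4:**
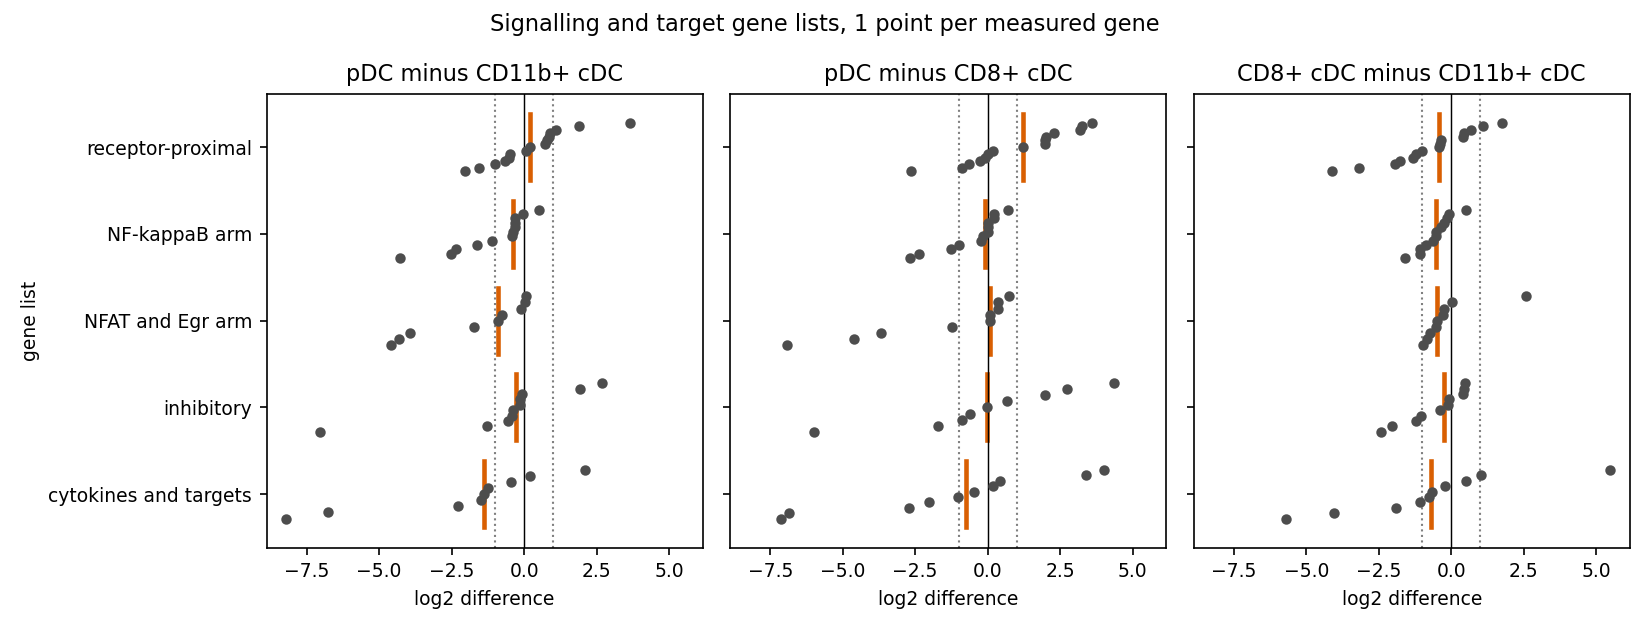
Log2 differences of genes above background in the 4 signalling lists and the cytokine and target list (1 point per gene, orange line at the list's median, dotted lines at 2-fold) for the 3 pairs of cell types. Receptor-proximal genes lie mostly above 0 for pDC minus CD8+ cDC (median 1.23), and the cytokine and target list lies lowest for pDC minus CD11b+ cDC (median -1.38).

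Of 18 cytokine and target genes that dectin signalling is known to induce or use, 9 were at background in both pDC and CD11b+ cDC, among them Il10, Il23a and Il6. Of the other 9, 6 were lower and 1 higher in pDC, beside 14.3% and 15% of all genes (median -1.38). Il1b read 166 in pDC, 23205 in CD8+ cDC and 48684 in CD11b+ cDC. Ptgs2, the cyclooxygenase-2 gene, read 77.8 in pDC, at background, 734 in CD8+ cDC and 12219 in CD11b+ cDC. It was at least 110-fold lower in pDC than in CD11b+ cDC, and Il1b was 293-fold lower. Ccl3 was 4.88-fold and Tnf 2.83-fold lower, and Ccl4 4.31-fold higher. Against CD8+ cDC, 5 of 10 were lower in pDC, led by Il1b (140-fold), Il12b (116-fold), Ptgs2 (at least 6.60-fold) and Tnf (4.06-fold), and 2 were higher, Ccl4 (16.1-fold) and Ccl3 (10.6-fold). In CD8+ cDC, 4 of 10 were lower than in CD11b+ cDC, Ccl3 (51.8-fold), Ptgs2 (16.6-fold), Ccl4 (3.74-fold) and Il1b (2.10-fold). Il12b, a subunit of interleukins 12 and 23, was 44.5-fold and Il6 at least 2.03-fold higher in CD8+ cDC, the Il6 call being lost under both other scalings.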

How the data were processed

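The deposited intensity of each probe set is on a linear scale, and MAS5 is named in the submitters' processing notes with no version. Other steps are not given in the sources used here. Sorted by size, the 3 columns differ by 0.01 (mean absolute log2), so the deposited distributions are nearly equal, which tends to hold all-gene medians near 0 and calls near an even split. The lowest values were 22.7, 22.8 and 22.8 in pDC, CD8+ cDC and CD11b+ cDC. Per the labels' protocols, 20 ng of RNA was amplified before hybridization.

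Probe sets were named by the platform annotation (34958 with 1 gene, 932 with several, 9211 with none), and the probe set brightest on average (log2) stood for its gene. Lists were matched by gene number. Background was the 95th percentile of 87 receptor probe sets on the array where it was highest, 5 of which exceeded it. Members, lists, rules and alternatives were chosen with earlier results of these data known. Named genes were the lectins, up to 4 per list and direction with the largest differences, and 3 nearest profiles each (not given for Clec4d). The calling step was run on simulated copies of the CD11b+ cDC array with large known changes. That checks the code only and says nothing of noise between real arrays. Python 3.11.15, numpy 2.4.6 and pandas 2.3.3 were used.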

Additional observations from a re-analysis of the deposited data

How the results depend on the processing

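No paired analysis was possible because each cell type has 1 array. With 8 other settings (2 scalings, 2 background settings, 2 probe set choices and 2 size rules), the counts of lectins stayed within 1.5 times their value as reported in every pair. Leaving out probe sets with shared-probe names removes Clec4n and Clec4d, and 3 lectins were then lower than in CD11b+ cDC in either comparison. Counts of signalling genes moved more. For pDC against CD11b+ cDC, 5 higher genes became 8 with housekeeping scaling, under which 2069 of all 10699 genes were higher. They became 2 with probe sets averaged, 3 without shared-probe names and 9 at 1.5-fold. For CD8+ against CD11b+ cDC, 3 higher and 14 lower became 1 and 34 with spike-in scaling, under which 4879 of 11712 genes were lower. In that pair, 1 signalling gene was higher with probe sets averaged and 7 were lower at 3-fold. The cause was not tested beyond the settings themselves. Second probe sets differed from the first by an SD of 0.86, 0.89 and 0.74 (log2) in pDC against CD11b+ cDC, pDC against CD8+ cDC and CD8+ against CD11b+ cDC. Of the lectin differences that were called, 0 changed sign. Those that moved by more than this SD were 4 values in CD8+ against CD11b+ cDC with spike-in scaling and 2 of Clec4a2 with probe sets averaged. The uncalled differences of Clec4a2, Clec4a3 and Clec4n between pDC and CD8+ cDC did change sign. Signals near background limit Clec4d and Clec4e.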

Other observations

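Genes of the phagosome and its oxidase, which act after uptake, were measured for 14 of 15 entries. Cybb, the catalytic subunit gp91phox, read 152140.1 in pDC, 1911 in CD8+ cDC and 55312 in CD11b+ cDC. It was 2.75-fold higher in pDC than in CD11b+ cDC, 79.6-fold higher in pDC than in CD8+ cDC and 28.9-fold lower in CD8+ cDC than in CD11b+ cDC. Rac2, a GTPase of the oxidase, was also lowest in CD8+ cDC, 6.28-fold below pDC and 4.18-fold below CD11b+ cDC. Ncf4, encoding p40phox, was 4.21-fold lower in pDC than in CD11b+ cDC and 4.37-fold lower in pDC than in CD8+ cDC. In the list, 2 genes were higher and 4 lower in pDC than in CD11b+ cDC, 4 higher and 2 lower in pDC than in CD8+ cDC, and 0 higher and 2 lower in CD8+ cDC than in CD11b+ cDC. Over all genes the shares higher and lower were 15% and 14.3%, 16% and 14.8%, and 9.84% and 10.3% in the same order. With spike-in scaling the list counts became 1 and 5, 7 and 1, and 0 and 10. Of all genes, 3456 of 10613 were then higher in pDC than in CD8+ cDC. In CD8+ cDC, 4879 of 11712 were then lower than in CD11b+ cDC. Housekeeping scaling gave list counts of 3 and 2, 6 and 1, and 0 and 5, so the lean of the first pair was not kept. The counts over all genes were then 2069 and 1306 of 10699, 2921 and 1118 of 10631, and 776 and 1505 of 10158.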
